A study of Mus musculus with 6 samples.

Results

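The Onecut family comprises the transcription factor genes Onecut1, Onecut2 and Onecut3, and all 3 members were found once each among the 55471 gene identifiers counted in the rostral telencephalic primordium of mouse embryos. The members were chosen by their read counts, which were higher in Rx-Dicer than in control libraries, so that difference is described here by its size and error and is not tested. Tissue from the most rostral telencephalic primordium at E11.5 was sequenced from 3 control samples (genotype label WT, Dicer F/F in the protocol, without Cre) and 3 Rx-Dicer samples (RxCre-Dicer F/F). The sources used here do not say whether a library holds 1 embryo or several. Dicer F/F is a floxed allele of Dicer1, the gene for the enzyme that cuts miRNA precursors into mature miRNAs, and it is present in both groups. Cre was present in Rx-Dicer samples alone, so the effect of Cre itself and the effect of losing Dicer cannot be told apart. Floxed mice were kept on a C57BL/6 and Rx3-Cre mice on a CD1 background. The Cre is driven by regulatory sequence of Rax (Rx), which is active early in the prospective forebrain, and recombination at this age is stronger in rostral and ventral telencephalon than in the neocortex. Whole tissue pieces were sequenced, and therefore a change in the number of expressing cells and a change in RNA per cell cannot be told apart.

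Onecut proteins bind DNA through a single CUT domain next to a divergent homeodomain, a pairing that gives the family its name. Onecut1 is known as a liver and pancreas factor, acting in hepatocytes, bile duct cells and endocrine precursors. In the nervous system the 3 genes mark young neurons outside the cortex, among them retinal horizontal and ganglion cells, spinal motor neurons and interneurons, and midbrain neurons, and Onecut3 marks sets of hypothalamic and ventral diencephalic neurons. The early telencephalon is not a territory for which the family is best known. Onecut1 and Onecut2 transcripts are known targets of miR-9, an abundant miRNA of the embryonic brain. Mature miRNAs recognise transcripts chiefly through the seed, bases 2 to 8 of the miRNA, which pairs with complementary bases in the 3′ UTR.

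The sequence of miR-9-5p, the searched miRNA with most matches in these genes, is given with that of let-7a-5p, another abundant miRNA of the embryonic brain, to show which letters were searched. They are the mature mouse sequences of RefSeq (GRCm38.p6), written 5′ to 3′ with the seed in capitals.

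miR-9-5p: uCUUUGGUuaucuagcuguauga
let-7a-5p: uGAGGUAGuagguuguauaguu

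The 7 bases ACCAAAG pair with the seed of miR-9-5p, and the 8-base match ACCAAAGA adds the A opposite the first base of the miRNA. For let-7a-5p the words are CTACCTC and CTACCTCA. The longest annotated 3′ UTR of each gene (GENCODE on GRCm38) was searched on the transcript strand. Onecut1 held 3 matches to miR-9-5p, given here with the matching bases in capitals because they are the sequence feature that all 3 members share.

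Onecut1 match at chr9:74889747-74889753, plus strand: ttatagtccaaagaaACCAAAGa
Onecut1 match at chr9:74890352-74890358, plus strand: aaaaatcacctaggtACCAAAGa
Onecut1 match at chr9:74890406-74890412, plus strand: gcaatgattttaataACCAAAGc

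Onecut3 also held 3 matches to miR-9-5p, and a let-7 match lay upstream of the first of them.

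Onecut3 let-7a-5p match at chr10:80515374-80515380, plus strand: cccatcctgtaaaggCTACCTCa
Onecut3 miR-9-5p match at chr10:80515419-80515425, plus strand: aagatcacgtttgatACCAAAGa
Onecut3 miR-9-5p match at chr10:80515581-80515587, plus strand: gtgcctttttactgaACCAAAGa
Onecut3 miR-9-5p match at chr10:80517149-80517155, plus strand: ttctggtccttacccACCAAAGa

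Of the 3 matches in Onecut1, 2 were 8-base matches, and all 3 in Onecut3 were. The first match in Onecut1 started 149 bases into a 3′ UTR of 2183 bases. The matches in Onecut3 started at positions 1273, 1435 and 3003 of a 3′ UTR of 3130 bases, and its let-7 match at position 1228. Onecut2 held 14 matches to miR-9-5p in a 3′ UTR of 14356 bases, of which 9 were 8-base matches. Its matches were not evenly spread. The first 5, all 8-base matches, lay between positions 1316 and 2515, and the first pair of them started 23 bases apart. Another 3 of the 8-base matches started at positions 7469, 7527 and 7536, and the last started at position 13084. A let-7 match of 8 bases lay among these at position 7480.

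**Figure D1:**
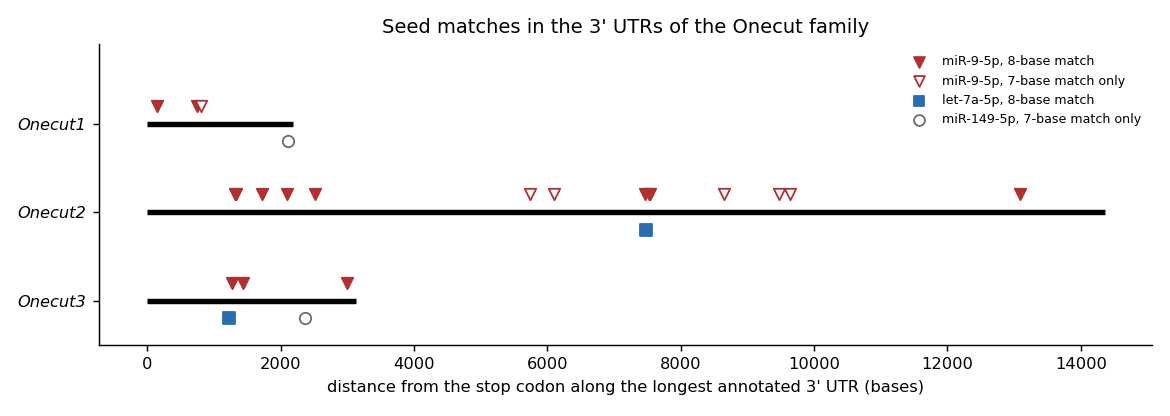
Seed matches along the longest annotated 3′ UTR of each Onecut gene, with distance from the stop codon in bases on the horizontal axis and 1 line per gene. Triangles above the line are miR-9-5p matches and symbols below it are let-7a-5p and miR-149-5p matches, filled for 8-base and open for 7-base matches. Onecut2 carries 14 miR-9-5p matches over 14356 bases, and Onecut1 and Onecut3 carry 3 each in far shorter 3′ UTRs.

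A miR-9-5p match of 7 bases was present in 15.7% of the 14069 genes that were tested and had an annotated 3′ UTR. No other gene of these had as many as Onecut2. At least 3 matches were found in 57 genes, 0.405% of the total, a number that includes the 3 Onecut genes. Per length, Onecut1 had 1.37 matches per kb, Onecut2 0.975 and Onecut3 0.958, against 0.102 per kb over all genes. Among the 18 genes with 3′ UTRs within 1.2-fold of that of Onecut2 in length, itself included, the median was 1 match. Among genes of like length, 4 of 2138 had at least as many matches as Onecut1 and 10 of 1816 as many as Onecut3. The other miRNAs searched had few matches. The let-7a-5p word had 0 matches in Onecut1 and 1 each in Onecut2 and Onecut3, miR-149-5p had 1 each in Onecut1 and Onecut3, and miR-99a-5p, miR-139-5p, miR-125b-5p and miR-30c-5p had none in any member. A match is a description of letters and not a tested binding site.

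Read counts of the 3 members were then examined in every library. Values are normalised read counts, the counts of a library divided by its median-of-ratios size factor, and they are given in the order of replicates 1, 2 and 3. Total counts per library were 34471501 to 48373468 and overlapped between the groups. A count of 3, taken as the floor of detection, was 0.0620 to 0.0870 CPM (counts scaled to the library total). This floor covers counting error only.

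Onecut2 (ENSMUSG00000045991, GRCm38 chromosome 18, 64340020 to 64400987, plus strand) is the member with most reads in both groups. Control libraries had 237, 121 and 144 normalised counts and Rx-Dicer libraries 1414, 554 and 1156. Every Rx-Dicer value was above every control value, and the lowest of them was 2.34 times the highest control. The mean was 167 ± 61.4 in controls and 1042 ± 441 in Rx-Dicer samples (SD, n = 3 each). The fitted log2 fold change was 2.64 ± 0.31 (SE), or 6.24-fold. Within a group the SD on the log2 scale was 0.50 in controls and 0.71 in Rx-Dicer samples, both smaller than the difference.

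Onecut3 (ENSMUSG00000045518, chromosome 10, 80494835 to 80517276, plus strand) showed the largest ratio of the family. Control libraries had 19.5, 10.2 and 5.64 normalised counts and Rx-Dicer libraries 569, 63.2 and 377. The groups did not overlap, but the Rx-Dicer values spread 9.02-fold from lowest to highest. The mean was 11.8 ± 7.09 in controls and 337 ± 256 in Rx-Dicer samples, a log2 fold change of 4.85 ± 0.96 or 28.8-fold. In raw reads these values rested on 32 counts over the 3 control libraries and 1123 over the 3 Rx-Dicer libraries, so the ratio rests on few control reads.

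Onecut1 (ENSMUSG00000043013, chromosome 9, 74861921 to 74891781, plus strand), known as a liver and pancreas factor, had the fewest reads. Control libraries had 13.4, 2.04 and 4.70 normalised counts and Rx-Dicer libraries 113, 23.4 and 52.3. The groups did not overlap, and the lowest Rx-Dicer value was 1.74 times the highest control. The mean was 6.72 ± 5.96 in controls and 63.0 ± 45.8 in Rx-Dicer samples, a log2 fold change of 3.27 ± 0.71 or 9.63-fold. The control values stood for 11, 2 and 5 reads, the second of which is under the floor, and repeat runs of the same control library 1 gave 2 and 9 reads. Its fold change thus rests on the fewest reads of the family, while the SE was largest for Onecut3.

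**Figure D2:**
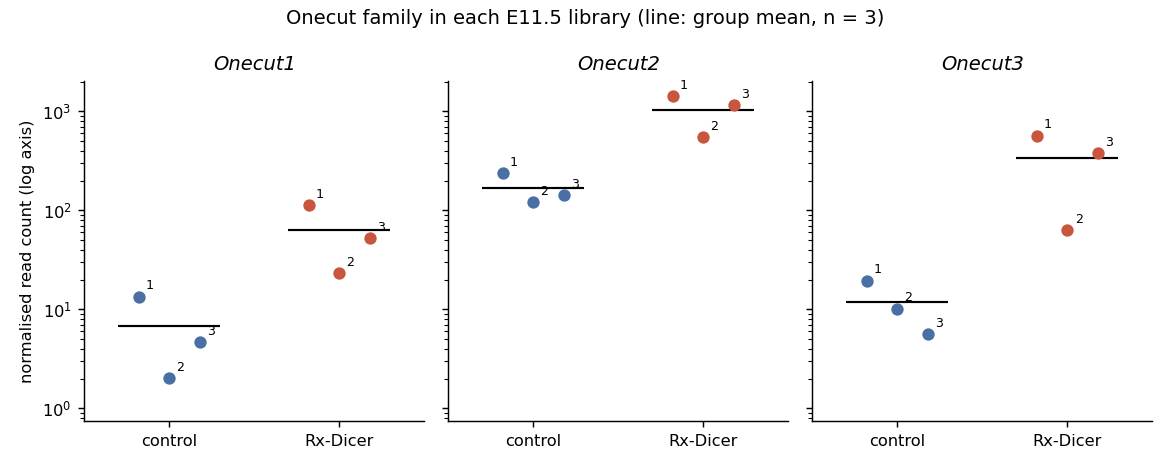
Normalised read counts (log axis) of Onecut1, Onecut2 and Onecut3 in the 3 control and 3 Rx-Dicer libraries. Each point is a library, marked with its replicate number, and the line is the group mean. All Rx-Dicer points sit above all control points in each panel, and in each panel Rx-Dicer 1 is highest and Rx-Dicer 2 lowest, at 554 for Onecut2 and 63.2 for Onecut3.

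These values can be set beside the whole transcriptome, with nothing read from them since they chose the family. Of 17127 genes tested by the DESeq2 Wald test, that is, given an adjusted p, 300 or 1.75% were called higher and 202 or 1.18% lower in Rx-Dicer samples, where a call needed an adjusted p under 0.05 and a log2 fold change beyond 0.32 in either direction. In 8.55% of tested genes all Rx-Dicer values lay above all control values, and in 10.7% all lay below. At an unadjusted p under 0.05, 6.96% of tested genes were higher and 6.11% lower. By log2 fold change Onecut3 was in position 6, Onecut1 in position 14 and Onecut2 in position 25 of the 17127 genes. With TMM scaling the log2 fold changes of the members were 3.27 for Onecut1, 2.65 for Onecut2 and 4.85 for Onecut3. edgeR's quasi-likelihood test called 8 of 17954 genes (0.0446%) and had 12.9% at an unadjusted p under 0.05. Its estimates of the members' log2 fold change were 3.27 for Onecut1, 2.65 for Onecut2 and 4.87 for Onecut3.

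The members kept the same order of libraries. In all 3 genes the order was Rx-Dicer 1, then Rx-Dicer 3, then Rx-Dicer 2. That order, with all Rx-Dicer values above all control values, was found in 96 of the 300 genes called higher (32.0%). The 96 include the 3 Onecut genes. Relative to the control mean, Rx-Dicer 1 was 16.8-fold higher for Onecut1, 8.45-fold for Onecut2 and 48.3-fold for Onecut3. Rx-Dicer 3 was 7.78-fold, 6.91-fold and 32.0-fold higher. Rx-Dicer 2 was 3.49-fold, 3.31-fold and 5.36-fold higher, so the 3 genes differed least from each other in the library where all were lowest. Control 1 had the highest value of the control libraries in every member.

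The library labelled Rx-Dicer 2 also stood apart in the targeted gene. Dicer1 (ENSMUSG00000041415) had 6355, 7070 and 6270 normalised counts in controls and 4777, 7002 and 4644 in Rx-Dicer libraries. The value of Rx-Dicer 2 lay within the range of the controls, and the other Rx-Dicer values lay below it. The log2 fold change was -0.26 ± 0.17 with a DESeq2 adjusted p of 0.567, and without Rx-Dicer 2 it was -0.47 with an adjusted p of 8.80e-04. Over the other alternatives the log2 fold change of Dicer1 was not called. Reads were counted over the whole gene while Cre removes a part of it, so this count checks the labels only in part. Without Rx-Dicer 2 the log2 fold change was 3.66 for Onecut1, 2.95 for Onecut2 and 5.38 for Onecut3, in each case larger than with it. Whether the Dicer1 level of a library bears on its Onecut level was not tested.

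Composition of the family was compared next. Of the normalised counts of all 3 members, Onecut2 held 90.6 ± 2.76% in controls and 75.6 ± 9.81% in Rx-Dicer samples (SD, n = 3 each). Onecut3 held 6.18 ± 2.19% in controls and 20.3 ± 9.17% in Rx-Dicer samples, and Onecut1 held 3.18 ± 1.73% and 4.12 ± 1.12%. The shares of Onecut1 overlapped between the groups, while those of Onecut2 (87.8 to 93.3% against 67.4 to 86.5%) and Onecut3 (3.66 to 7.63% against 9.86 to 27.2%) did not. In Rx-Dicer 2, where the family was lowest, Onecut3 reads were 0.114 times those of Onecut2, against 0.0392 to 0.0840 in the controls. In Rx-Dicer 1 and 3 that ratio was 0.403 and 0.326.

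Transcripts of the members differ in length, so levels between genes were compared per kb of merged exons, as normalised counts per kb. In controls Onecut2 was highest with 10.3 ± 3.78, followed by Onecut3 with 2.47 ± 1.48 and Onecut1 with 1.63 ± 1.45. The ranges of Onecut3 (1.18 to 4.09) and Onecut1 (0.495 to 3.27) overlapped between libraries. Within each control library Onecut3 was above Onecut1, at 4.09 against 3.27, 2.13 against 0.495 and 1.18 against 1.14. These values rest on few reads, and the difference was not tested. In Rx-Dicer samples Onecut3 had 70.5 ± 53.5, Onecut2 64.2 ± 27.2 and Onecut1 15.3 ± 11.1. Onecut3 was above Onecut2 in Rx-Dicer 1 (119 against 87.1) and Rx-Dicer 3 (79.0 against 71.2). It was below Onecut2 in Rx-Dicer 2 (13.2 against 34.1). The order of Onecut2 and Onecut3 depended on the length used. Onecut2 has 16234 bases of merged exons and 1515 of coding sequence, and Onecut3 has 4776 and 1470. Per kb of coding sequence Onecut2 was above Onecut3 in Rx-Dicer samples, with 687 against 229, and Onecut1 had 45.1.

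Whether the difference reached the genes next to the members was asked from position, which had not been used to choose them. The 3 nearest genes on each side with a mean of at least 10 normalised counts gave 18 neighbours, at 1787 to 1738588 bases from a member. By the DESeq2 test 1 was called higher and 0 lower, beside 1.75% and 1.18% of all genes tested. At an unadjusted p under 0.05 there were 2 higher and 1 lower, beside 6.96% and 6.11%. edgeR called 0 of the 18, with 3 at an unadjusted p under 0.05, beside 12.9% of all genes. The called gene was Gm16551, a noncoding processed transcript that ends 1787 bases before the start of Onecut1 on the same strand. It had 17.1, 4.07 and 6.58 normalised counts in controls and 93.5, 48.9 and 119 in Rx-Dicer libraries, which did not overlap. With a control mean of 9.25 it passed the minimum of 10 only through its Rx-Dicer mean of 87.1, so its place among the 18 rests on the difference itself and nothing is read from the count. Its log2 fold change was 3.27 ± 0.55, close to that of Onecut1, with a DESeq2 adjusted p of 1.45e-06. It was called in 10 of 12 alternatives, with adjusted p from 2.46e-07 to 0.101 (edgeR), and the fit without Rx-Dicer 3 gave it no adjusted p. Unlike the members it was highest in Rx-Dicer 3. Without Rx-Dicer 1 another neighbour, Uqcr11, which lies before Onecut3, was also called, in the lower direction.

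The other 17 neighbours were not called, and their log2 fold changes ran from -1.39 to 0.47. Around Onecut1 the next genes were Unc13c, a synaptic vesicle priming factor with a log2 fold change of -1.39 ± 2.09, and Fam214a with -0.04 ± 0.18. Around Onecut2, St8sia3, a brain sialyltransferase, had 0.47 ± 0.22 with an adjusted p of 0.294, and Nars, the asparaginyl-tRNA synthetase gene, had -0.04 ± 0.13. Around Onecut3, Tcf3, a ubiquitous bHLH factor, had -0.09 ± 0.11, and Atp8b3, which lies 2308 bases after Onecut3, had -0.08 ± 0.40. Of 2 annotated genes that overlap a member on the same strand, Gm20649 had 0 counts in every library and 2610034O05Rik at most 7. Reads that overlap more than 1 gene were tallied apart, so reads within such an overlap were counted for neither gene.

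**Figure D3:**
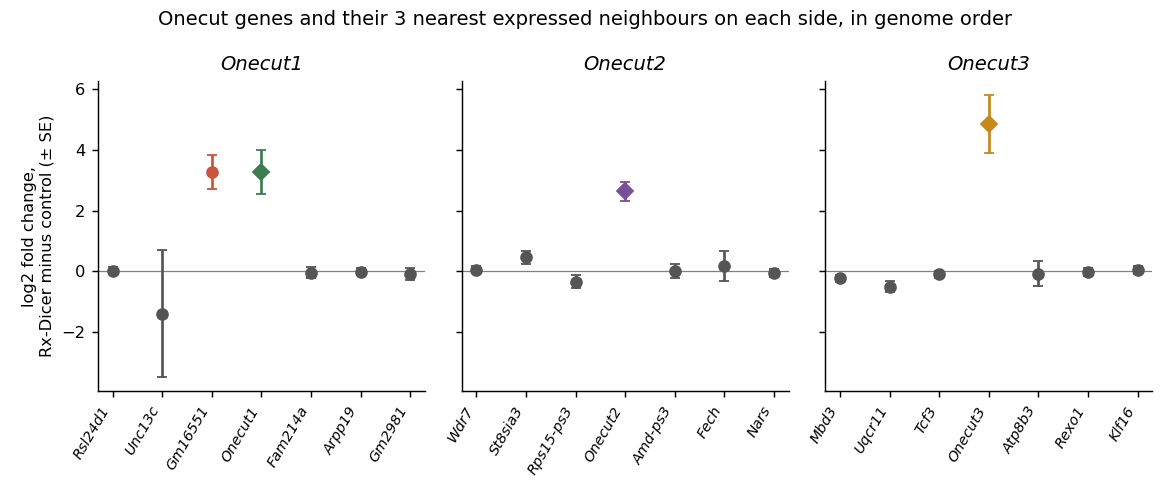
Log2 fold change (Rx-Dicer minus control, ± SE, n = 3 per group) of each Onecut gene (diamond) and of the 3 nearest expressed genes on each side in genome order (circles). The filled red circle is Gm16551, called higher at 3.27, and the grey circles were not called, from -1.39 (Unc13c) to 0.47 (St8sia3).

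Genes with the nearest profile to each member over the 6 libraries were found by the root mean square (RMS) difference of log2(normalised count + 1), each gene centred on its control mean, among 16076 genes with a mean of at least 20. This likeness uses the same contrast that chose the members, and it is a description over 6 libraries. Nearest to Onecut2 was Ano3, a membrane protein of the anoctamin family, with an RMS difference of 0.220. Ano3 had 72.1, 53.0 and 40.4 normalised counts in controls and 476, 158 and 372 in Rx-Dicer libraries, in the same order of Rx-Dicer libraries as Onecut2. Next came Eda2r, a receptor of the tumour necrosis factor family (0.306), then Lrp2, an endocytic receptor of the forebrain neuroepithelium (0.410), Prtg (0.412) and Abcg8 (0.515). Onecut1 was nearest to its neighbour Gm16551 (0.488), then Ret, a receptor tyrosine kinase for glial cell line-derived ligands (0.508), Lrp2 (0.577), Onecut2 (0.580) and Eda2r (0.655).

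Nearest to Onecut3 was Bsx. This gene, a hypothalamic homeobox gene, had 6.11, 4.07 and 2.82 normalised counts in controls and 188, 14.3 and 188 in Rx-Dicer libraries, an RMS difference of 0.470. It was followed by Skor1, a corepressor of dorsal spinal neurons (0.677), Trh, the gene of thyrotropin-releasing hormone (0.696), Wnt1, a signal of the midbrain and dorsal midline (1.02), and Gm16551 (1.12). Of these, Bsx, Trh and Wnt1 had under 20 normalised counts in Rx-Dicer 2, with 14.3 for Bsx, 6.11 for Trh and 1.02 for Wnt1, whereas Onecut3 had 63.2 there. Between members, Onecut2 ranked as number 4 for Onecut1 and Onecut1 as number 6 for Onecut3. At the same RMS difference of 1.42, Onecut2 ranked as number 13 for Onecut3 and Onecut3 as number 512 for Onecut2. The ratio of the highest to the lowest Rx-Dicer library was 9.02 for Onecut3, 4.83 for Onecut1 and 2.55 for Onecut2. These differences between the members were not tested.

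**Figure D4:**
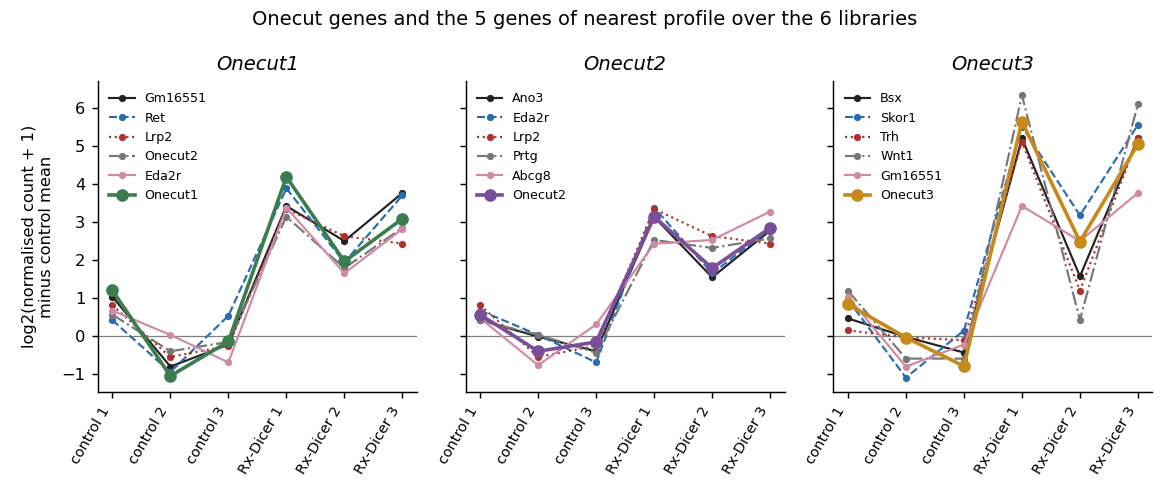
Profiles of the Onecut genes (thick lines) and of the 5 genes nearest to each over the 6 libraries, as log2(normalised count + 1) minus the mean of the gene in controls. Onecut2 and Ano3 run close together in all libraries, while the genes nearest to Onecut3, apart from Gm16551, reach about the same height in Rx-Dicer 1 and 3 and separate in Rx-Dicer 2, from Wnt1 at the bottom to Skor1 at the top.

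Relatives and reported partners of the family were examined as lists, with the same test over all genes. Of 4 other CUT domain homeobox genes tested, Cux1, Cux2 and Satb1 among them, 0 were called by DESeq2 or edgeR, and 0 had an unadjusted p under 0.05 by either tool. Over all genes tested DESeq2 called 1.75% higher and 1.18% lower, and 6.96% and 6.11% had an unadjusted p under 0.05. Cux1 had 10403, 11237 and 10422 normalised counts in controls and 9018, 10811 and 8632 in Rx-Dicer libraries, a log2 fold change of -0.17 ± 0.13 with a DESeq2 adjusted p of 0.652. Cux2 had a log2 fold change of -0.06 ± 0.13 and Satb1 of -0.08 ± 0.14, and the median of the list was -0.07.

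Of 21 genes that act above, with or under Onecut factors in neural tissue, 14 were tested, 2 rose and 0 fell, against 1.75% and 1.18% of all genes tested. The median log2 fold change of the list was 0.33, beside -0.000899 over all genes tested, a value that holds for every list here. At an unadjusted p under 0.05 there were 3 higher and 0 lower of the 14, beside 6.96% and 6.11% of all genes tested. Rxrg, in that count of 3, had a control mean of 10.3 and an Rx-Dicer mean of 32.7. It passed independent filtering only through its Rx-Dicer values. Lhx1, a LIM homeobox gene of retinal horizontal cells and other young neurons, rose from 468 ± 105 to 932 ± 297 normalised counts. Its log2 fold change was 1.00 ± 0.24 with a DESeq2 adjusted p of 0.00393. Its Rx-Dicer values were 1212, 620 and 965, in the order of libraries seen in the members. Pou2f2, a POU factor acting downstream of Onecut factors in spinal neurons, rose from 332 ± 40.7 to 847 ± 143, a log2 fold change of 1.35 ± 0.18 with an adjusted p of 1.37e-10. Isl1 (456 ± 242 to 758 ± 374, adjusted p 0.699) and Tfap2b (adjusted p 0.987) were not called. Foxn4 and Ptf1a, which also act in the retina, were given no adjusted p by DESeq2, whose independent filtering left them out. Foxn4 had 4.89, 5.09 and 6.58 normalised counts in controls and 28.3, 6.11 and 25.7 in Rx-Dicer libraries. Its unadjusted DESeq2 p was 0.0219, and it is not in the count of 3. Pou2f2 was called in 11 of 12 alternatives, and the call of Lhx1 was lost without Rx-Dicer 1, Rx-Dicer 3, control 2 or control 3.

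The liver and pancreas partners were mostly near 0. Of the list, 3 of 16 genes were tested, and 8 had at most 3 counts in every library, Hnf4a, Pdx1 and Alb among them. DESeq2 called 0 higher and 1 lower, beside 1.75% and 1.18% of all genes tested. The lower gene was Sox9, a factor of bile duct and pancreas that is also abundant in neural progenitors, which fell from 10482 ± 182 to 7304 ± 1174 (log2 fold change -0.52 ± 0.14, adjusted p 0.0140). Cebpa had a log2 fold change of 0.53 ± 0.33 and Spp1 1.87 ± 0.61 with a DESeq2 adjusted p of 0.0684, neither called. Without Rx-Dicer 2 Spp1 had a DESeq2 adjusted p of 0.00155 and was called. The median log2 fold change of the 3 tested genes was 0.53. At an unadjusted p under 0.05, 1 was higher and 1 lower, beside 6.96% and 6.11% of all genes tested. The call of Sox9 was lost without control 2 or control 3.

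Because Onecut genes are known from young neurons, general neuron genes were examined beside them. Of 22 early neuron genes, all tested, 2 rose and 1 fell, beside 1.75% and 1.18% of all genes tested. The median log2 fold change was -0.17. At an unadjusted p under 0.05, 3 were higher and 5 lower, beside 6.96% and 6.11%. Nefl, the light neurofilament gene, rose from 377 ± 111 to 1079 ± 452, with 1487, 593 and 1157 in Rx-Dicer libraries, a log2 fold change of 1.52 ± 0.29 and a DESeq2 adjusted p of 6.64e-05. Nefm, the medium neurofilament gene, rose by 0.74 ± 0.20 on the log2 scale, and Stmn3 fell by 0.61 ± 0.16. Tubb3, the most abundant gene of the list, had a log2 fold change of -0.25 ± 0.15 with an adjusted p of 0.520. The call of Nefl was lost without control 2 and that of Stmn3 without Rx-Dicer 2, Rx-Dicer 3 or control 1, and Nefm was called in 6 of 12 alternatives.

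Markers of tissue next to the dissected region were examined to see what else moved with the members. Of 18 hypothalamic markers 13 were tested, 4 rose and 1 fell, beside 1.75% and 1.18% of all genes tested. Their median log2 fold change was 0.99. At an unadjusted p under 0.05, 7 were higher and 1 lower, beside 6.96% and 6.11%. Of the risen genes, Bsx, Otp and Hmx3 had control means of 4.33, 4.68 and 4.32 and Rx-Dicer means of 130, 50.4 and 30.1. They passed independent filtering only through their Rx-Dicer values, so nothing is read from these counts or the median. Summed normalised counts of all 18 markers were 3470 to 4649 in controls and 6588 to 7691 in Rx-Dicer libraries. Most of each sum came from few genes. The mean of Fezf1 was 1473 for controls, against 2436 for Rx-Dicer samples. Lhx9 had 1551 against 1935, Isl1 456 against 758 and Nkx2-1 82.4 against 1290. The sums therefore say little about the rest of the list. Each of Nkx2-2, Nr5a1, Hmx2, Hmx3, Foxb1 and Six6 was at 0 in 1 library. Bsx rose by 4.92 ± 1.09 on the log2 scale with a DESeq2 adjusted p of 0.00107, Otp, a factor of neuroendocrine neurons, by 3.40 ± 0.74, Hmx3 by 2.82 ± 0.88 and Fezf1 by 0.73 ± 0.15. Pomc, the gene of the melanocortin precursor, fell by 0.77 ± 0.23. Nkx2-1, a factor of ventral telencephalon and hypothalamus, had 3.66, 51.9 and 192 normalised counts in controls and 682, 1882 and 1307 in Rx-Dicer libraries, a log2 fold change of 3.97 ± 1.26 with an adjusted p of 0.0549. Otp followed the order of libraries of the members (69.5, 14.3 and 67.5), whereas Nkx2-1 was highest in Rx-Dicer 2, where the members were lowest. Fezf1 was called in 11 of 12 alternatives and Hmx3 in 2 of 12. The call of Bsx was lost without Rx-Dicer 3 and that of Otp without Rx-Dicer 1 or Rx-Dicer 3. That of Pomc was lost without Rx-Dicer 1, control 2 or control 3. Bsx was given an adjusted p in 11 of the 12 alternatives, Otp in 9 and Hmx3 in 6. An alternative that gave none counts here as not called. The part of hypothalamic tissue in the Onecut result was not tested.

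Other neighbouring or mixed tissues were examined likewise. None of 9 tested optic and retinal markers and none of 11 tested sensory ganglion and placode markers was called by DESeq2 or edgeR. At an unadjusted p under 0.05 DESeq2 gave 0 higher and 1 lower in the first list and 1 higher and 1 lower in the second, and edgeR 2 and 0 genes. Of the 15 optic and retinal markers 3 had at most 3 counts in every library. Of 11 tested thalamic and midbrain markers 1 rose, Otx2 by 0.78 ± 0.23 on the log2 scale, and of 12 Cajal-Retzius markers 1 rose, Lhx1, which is also in the list of partners. Their tallies at an unadjusted p under 0.05 were 1 higher and 2 lower for the thalamic and midbrain list and 2 higher and 4 lower for the Cajal-Retzius list. Of 17 mesenchyme, vessel and blood markers 3 rose, the microglial genes Cx3cr1 by 1.18 ± 0.31 and Csf1r by 0.98 ± 0.29, and Foxd1 by 0.70 ± 0.19, with 4 higher and 0 lower at an unadjusted p under 0.05. The summed counts of that list, 396289 to 774951 in controls and 299310 to 764264 in Rx-Dicer libraries, overlapped. Most of each sum was globin reads, with Hbb-y alone at 227277 to 565192 in controls and 169192 to 517891 in Rx-Dicer libraries. The sums therefore say little about the other tissues of the list. Otx2, Lhx1, Cx3cr1, Csf1r and Foxd1 were each called in 5 to 7 of 12 alternatives. For comparison, DESeq2 called 1.75% of all genes tested higher and 1.18% lower. At an unadjusted p under 0.05 the shares were 6.96% and 6.11% by DESeq2 and 12.9% by edgeR. The share of these tissues in the members' counts was not tested.

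Telencephalic identity genes summed to 120444 to 141169 normalised counts in controls and 105283 to 123447 in Rx-Dicer libraries, ranges that overlapped. Of 16 identity genes 1 rose, Six3, a rostral forebrain homeobox gene, by 1.27 ± 0.22 on the log2 scale, and 2 fell, Pax6 by 0.43 ± 0.12 and Eomes by 0.59 ± 0.16, with 1 higher and 4 lower at an unadjusted p under 0.05. Over all genes tested 1.75% were called higher and 1.18% lower, with 6.96% and 6.11% at an unadjusted p under 0.05. Pax6 and Eomes mark cortical progenitors. Six3 was called in 11 of 12 alternatives, Pax6 in 9 and Eomes in 6. edgeR called 0 genes of the 12 lists, so each of these calls rests on DESeq2.

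**Figure D5:**
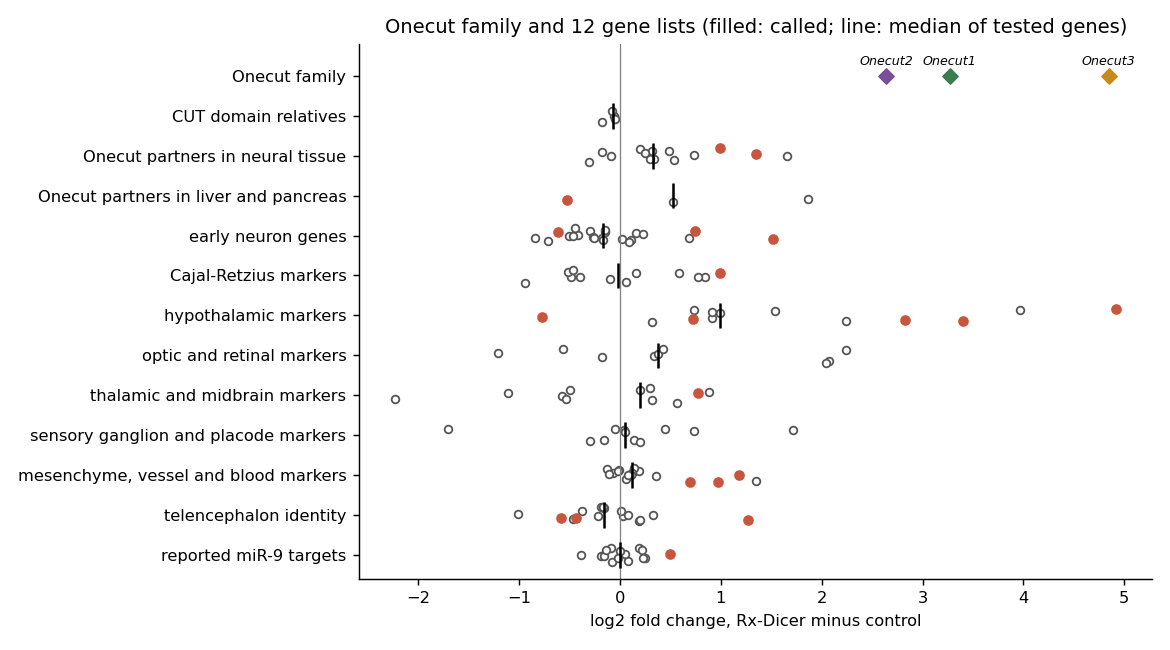
Log2 fold change (Rx-Dicer minus control) of the Onecut genes (diamonds) and of the tested genes of 12 lists (circles, filled where called by DESeq2), with the median of each list as a vertical line. CUT domain relatives sit close to 0, with Cux1 lowest at -0.17, the hypothalamic list has the highest median at 0.99, and 1 hypothalamic marker, Bsx at 4.92, lies beyond Onecut3.

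The shared miR-9 matches raised the question of how other genes with such matches behaved. Mature miRNAs were not measured in these libraries, so whether miR-9 was reduced in them was not examined. Small RNA sequencing in the study found few mature miRNAs significantly reduced at this age, most of them of the let-7 family. Its reduction of miR-9 was shown by in situ hybridisation at later ages. Of 16 genes reported as miR-9 targets elsewhere, 15 were tested and had a median log2 fold change of 0.01. DESeq2 called 1 higher and 0 lower, beside 1.75% and 1.18% of all genes tested. Rest, the repressor of neuronal genes, was the 1 called gene and rose from 3107 ± 206 to 4373 ± 430, a log2 fold change of 0.49 ± 0.13 with a DESeq2 adjusted p of 0.00791, a call lost without control 2. Apart from the Onecut genes, 54 genes had at least 3 matches of 7 bases to miR-9-5p in the 3′ UTR, of which 8 were called higher (14.8%) and 0 lower, and their median log2 fold change was 0.16. Among 1858 genes with 1 match 77 were called higher (4.14%), and among 11860 genes without a match 187 (1.58%). Median 3′ UTR length moved with the number of matches, from 1207 bases without a match to 4867 with at least 3. For let-7a-5p the shares were 18.2% of 33 genes with at least 3 matches, 2.72% with 1 and 1.88% without. The part of 3′ UTR length in these shares was not tested. The 3 Onecut genes had log2 fold changes of 2.64 to 4.85, smallest for Onecut2, which had the most matches. They were chosen by this contrast, so nothing is read from setting them beside the other genes with matches.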

How the data were processed

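RNA-seq of 3 control and 3 Rx-Dicer samples was analysed. Per the labels and the methods of the study, the authors trimmed reads with Trim Galore 0.6.5, aligned them to GRCm38.p6 with HISAT2 and deposited raw counts per gene from HTSeq 0.12.4 (union mode, reverse strand). Reads on several genes were left out, as were 24.9 to 31.0% of tallied reads overall. The 2 files of a sample were repeat runs (chi-square per gene 1.13 to 1.52, against 22.5 to 32.6 between samples) and were summed. The study describes its controls as littermates, but which samples share a litter is not given in the sources used here, so p-values measure the spread between these samples.

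Genotypes were compared with DESeq2 1.42.0 in R 4.3.3, the tool of the study (Wald test, unshrunken log2 fold change, Benjamini-Hochberg adjustment with independent filtering). Alternatives were edgeR 4.0.16 (quasi-likelihood, at least 10 counts in at least 3 samples), other scaling, filter, runs, a block and leaving out each sample. Of the identifiers, 55230 were in the GENCODE annotation. The family, the 12 lists (185 genes), the neighbours and 8 miRNAs, of which 7 had a sequence in the RefSeq table, were chosen with earlier results of these data known. Named genes were the members, Dicer1, the neighbours, the 5 nearest profiles and, within lists, called genes and the 4 with the highest mean, and further list genes were named after their values were seen. Values of some listed genes are not reported here, and those genes stay in the counts.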

Additional observations from a re-analysis of the deposited data

How the results depend on the processing

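The estimates for Onecut1, Onecut2 and Onecut3 kept their direction under every scaling, filter, run and block tried. Leaving out each sample in turn gave 2.52 to 4.22 for Onecut1, 2.36 to 2.97 for Onecut2 and 4.24 to 5.41 for Onecut3 on the log2 scale, lowest without Rx-Dicer 1 and highest without control 1. Dicer1 ranged from -0.47 (without Rx-Dicer 2, then called) to -0.16. Per kb of coding sequence the control levels were 4.82 for Onecut1, 110.4 for Onecut2 and 8.02 for Onecut3. With a pseudocount of 5, 2 of the 5 nearest profiles of Onecut2 stayed, and with a minimum mean of 50, 2 of those of Onecut3.

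Calls depended on the tool. edgeR called 8 genes higher and 0 lower, with 2313 genes at an unadjusted p under 0.05 against 2239 by DESeq2, and 0 genes in every list and among the neighbours. Samples with the same replicate number deviated together for number 1 alone (correlations 0.26, 0.03 and -0.17), so the numbers were not taken as pairs. Under the replicate block DESeq2 called 87 genes lower, 2 Cajal-Retzius markers higher and 1 lower, 1 optic marker higher, 1 sensory ganglion marker lower, and 0 hypothalamic and telencephalic genes lower and 0 thalamic markers higher, and the members had 3.32, 2.60 and 4.54. TMM scaling and the second runs alone gave 2 Cajal-Retzius markers higher. The filter on low counts and the first runs alone gave 1 lower. The first runs alone gave 2 hypothalamic markers higher, and either run alone 0 lower.

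Leaving out a sample gave 172 (without control 2) to 429 (without Rx-Dicer 2) genes higher and 86 (without control 3) to 371 (without Rx-Dicer 1) lower. Neighbours called ranged from 0 to 2. Calls higher ranged from 1 to 3 for neural partners, 0 to 1 for liver and pancreas partners, 0 to 2 for early neuron genes, 0 to 2 for Cajal-Retzius markers, 1 to 6 for hypothalamic markers, 0 to 1 for optic markers, 0 to 1 for thalamic and midbrain markers, 0 to 2 for sensory ganglion markers, 0 to 3 for mesenchyme, vessel and blood markers, 1 to 2 for telencephalon identity and 0 to 2 for miR-9 targets. Calls lower ranged from 0 to 1 for liver and pancreas partners, 0 to 3 for early neuron genes, 0 to 2 for Cajal-Retzius markers, 0 to 1 for hypothalamic markers, 0 to 4 for telencephalon identity and 0 to 1 for miR-9 targets. The cause was not tested. Few control reads limit Onecut1 and Onecut3.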
